A study of Mus musculus with 4 samples.

Results

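Alveolar type 2 cells were examined in the lungs of TNF+ mice and of TNF- littermates by single-cell RNA-sequencing. The cells were chosen by their own counts of unique molecular identifiers (UMIs, each standing for 1 captured RNA molecule). Among lung barcodes with at least 500 UMIs and at most 20% mitochondrial UMIs, a cell was kept when it held at least 50 UMIs of Sftpc and at least 3 UMIs of Lamp3, Slc34a2 and Abca3 together. It also had to hold 0 UMIs of Ptprc, the pan-leukocyte gene that encodes CD45, and 0 of Cdh5, which encodes the endothelial VE-cadherin. This left 453 cells of the 19427 lung barcodes past the filter, 306 from the TNF- lung and 147 from the TNF+ lung. The whole series held 30943 barcodes.

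The series compared cells of the lung and of the synovium between the genotypes, in 4 libraries. TNF+ mice belong to a transgenic line that carries 1 copy of the human TNF gene, and in the study they stand for arthritis that comes with pulmonary hypertension. TNF- mice are littermates without that gene. All mice were female, 4 months old and on a C57BL/6 background. Lung tissue was pooled within each genotype from 3 to 5 mice before dissociation, so each genotype is 1 lung library and no comparison between genotypes has a replicate. For that reason values are given side by side, without p-values. The intervals, all at 95%, cover counting error only and hold neither the spread between mice nor that between library preparations. The human gene is not in the mouse reference, so the transgene itself was not measured, and the labels do not say which cell types express it.

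Alveolar type 2 cells are the cuboidal epithelial cells of the alveolus. They make pulmonary surfactant, store it in lamellar bodies and secrete it onto the air surface, where it lowers surface tension. They also release antimicrobial proteins, present antigen on MHC class II, synthesize and import lipid for surfactant, and serve as progenitors of the flat type 1 cells across which gas is exchanged. The cytokine TNF binds its receptors TNFR1 and TNFR2 on many cells and signals through IκB proteins to the transcription factor NF-κB.

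The selected cells made up 3.67% (Clopper-Pearson interval 3.28 to 4.09) of the 8342 TNF- barcodes and 1.33% (1.12 to 1.56) of the 11085 TNF+ barcodes. This lower share in the TNF+ lung cannot be told apart from differences in dissociation or in the number of other cells captured. The shares also depended on the rule. Without the conditions on Ptprc and Cdh5 the shares were 5.57% of TNF- barcodes and 2.58% of TNF+ barcodes. Of the TNF+ cells that met the other conditions, 135 (47.2%) held a UMI of Ptprc, against 93 (20%) in TNF-. A UMI of Cdh5 was held by 6 (2.10%) in TNF+ and by 86 (18.5%) in TNF-. Of the 21 barcodes that both lung libraries shared, 0 were among the selected cells.

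The cells were deep in both libraries. In TNF- they held from 982 to 57259 UMIs, with a median of 25334.5, and in TNF+ from 593 to 59091, with a median of 29261. The medians over all filtered barcodes were 8109 and 9679 UMIs. The rule asks for raw counts, which deep barcodes meet more easily, so this contrast was partly set by the choice of cells. More than 5000 genes were detected in 164 (53.6%) of the TNF- cells and in 94 (63.9%) of the TNF+ cells. The limits used in the study, 200 to 5000 genes, would keep 142 and 53 of them. The median mitochondrial share was 5.18% in TNF- and 3.54% in TNF+. Summed over cells, 7260183 UMIs of TNF- and 3905621 of TNF+ stood behind the levels below, which are given as CPM, UMIs scaled so that each sum becomes 1000000.

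The threshold on Sftpc fell in a sparse stretch. The members with the fewest Sftpc UMIs held 88, 93 and 139 in TNF- and 52, 55 and 56 in TNF+. Among barcodes that met the other conditions, those just outside held 44, 32 and 29 in TNF- and 48, 38 and 35 in TNF+. The condition on Lamp3, Slc34a2 and Abca3 alone left out 2 TNF- and 22 TNF+ barcodes, which met all the others. Sftpc accounted for a median of 15.3% of the UMIs of a TNF- cell and 13.4% of those of a TNF+ cell, and for 39.9% in the highest cell.

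**Figure D1:**
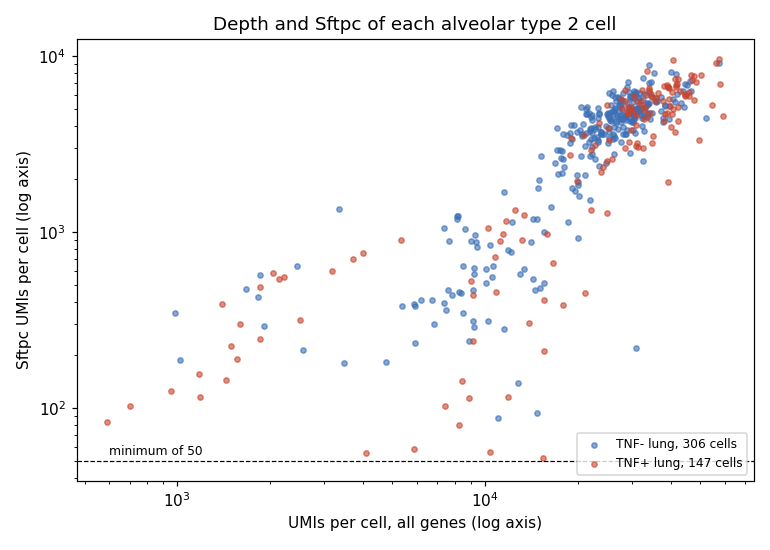
Sftpc UMIs per cell plotted against all UMIs per cell (both log axes) for the 306 TNF- and 147 TNF+ alveolar type 2 cells, 1 point per cell, with the minimum of 50 as a dashed line. Most cells of both libraries lie together at high depth, with medians of 4075 and 3887 Sftpc UMIs, and a tail of shallower cells runs down toward the minimum.

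The label was checked on markers of this and other cell types. Besides the genes of the rule, Sftpb was detected in 305 of 306 TNF- cells and in all 147 TNF+ cells, and Napsa, the aspartic protease that processes surfactant proteins, in 99.3% and 95.9%. The 7 T cell markers summed to 0.141 UMIs per type 2 cell in TNF- and 0.354 in TNF+, against 41.2 and 44.9 per T cell of the same lungs. The type 2 cells were chosen to lack Ptprc and the T cells to hold Cd3e, which is among these markers. This contrast was therefore partly set by the choice of cells and does not test the label. The 4 basal cell markers summed to 5 UMIs over all TNF- cells and 0 over all TNF+ cells, with Krt5 and Krt14 at 0 in both, and the 5 mesothelial markers to 9 UMIs and 1 UMI, with Lrrn4 and Wt1 at 0 in both. Airway markers were present. The 7 airway secretory markers summed to 8.48 and 2.91 UMIs per type 2 cell, next to 3.71 and 2.38 per T cell, and the 8 ciliated cell markers to 2.08 and 1.34, next to 0.269 and 0.231. The part of airway cells or their RNA in the results was not tested.

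RNA released from broken cells is captured with every barcode. Its level was read from T cells (762 in TNF- and 1141 in TNF+, with at least 2 UMIs of Cd3e, under 50 of Sftpc and 0 of Cd79a), which should lack epithelial RNA. A T cell held on average 3.10 UMIs of Sftpc in TNF- and 4.29 in TNF+, against 3635 and 3590 in a type 2 cell. The 7 B and plasma cell markers summed to 2.15 UMIs per type 2 cell in TNF- and to 13.0 in TNF+, next to 2.53 and 12.9 per T cell. Of these, Igkc, the kappa light chain of antibodies, accounted for 1.20 and 10.2 UMIs per type 2 cell and 0.756 and 9.24 per T cell. The 12 macrophage and monocyte markers summed to 1.15 and 5.36 UMIs per type 2 cell and to 5.28 and 20.5 per T cell. These immune markers were thus higher in both cell types of the TNF+ lung. Values per T cell are printed beside some of the results below, and the part of free RNA in the results was not tested.

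The genotypes were compared by the log2 ratio of CPM, TNF+ over TNF-, over the 8672 genes with at least 100 UMIs in both libraries together, called tested below. The median log2 ratio was -0.03. A gene was counted as higher or lower when the ratio reached 2-fold. By that measure 249 genes were higher in TNF+ cells, 2.87% of those tested, and 248 were lower, 2.86%. These percentages are the background against which the counts for each gene list are read.

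**Figure D2:**
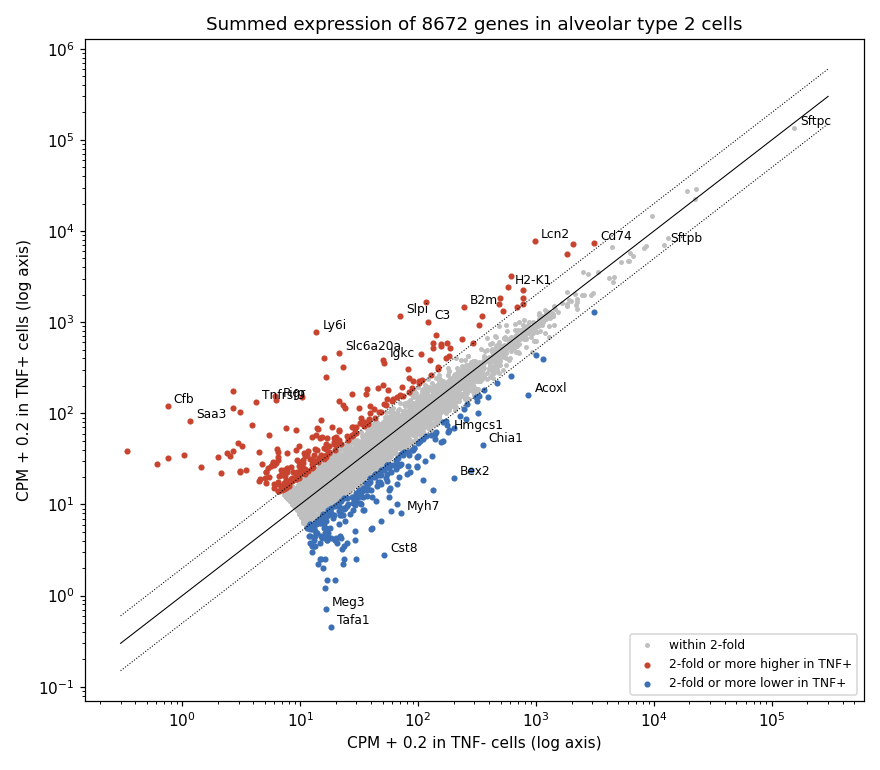
Summed level of the 8672 tested genes in TNF- cells (horizontal) and TNF+ cells (vertical), in CPM plus 0.2 on log axes, with lines at equality and at 2-fold. The 249 genes higher in TNF+ include Lcn2, C3, Cfb, Slpi and MHC genes, and the 248 lower genes include Acoxl, Chia1, Bex2 and Hmgcs1, while Sftpc lies close to equality.

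The 4 surfactant proteins together summed to 188962 CPM in TNF- and 176612 in TNF+, and none of them passed 2-fold. Most of each sum was Sftpc, a gene of the rule, so the sums are given as a description. The other 3 had a median log2 ratio of 0.53. Sftpc, the hydrophobic surfactant protein C that also chose the cells, ranged over cells from 6315 CPM through a median of 153250 to 399464 in TNF- and from 3367 through 133560 to 282513 in TNF+. The ranges overlapped over most of their length. Sftpb, which encodes surfactant protein B and is needed for lamellar bodies to form, ranged from 0 through a median of 12081 to 22966 CPM in TNF- and from 290 through 6713 to 15217 in TNF+. No TNF+ cell reached the highest 10% of TNF- cells for Sftpb. Its summed level was 12180 CPM (12100 to 12260) in TNF- and 7055 (6972 to 7139) in TNF+, a log2 ratio of -0.79 (-0.81 to -0.77). The collectins, which bind microbes, moved the other way: Sftpa1 was at 19212 CPM in TNF- and 27707 in TNF+ (log2 0.53) and Sftpd at 4368 and 6723 (log2 0.62). Over the settings tried, the log2 ratio ran from 0.0065 to 0.57 for Sftpa1, from 0.11 to 0.66 for Sftpd and from -0.94 to -0.76 for Sftpb.

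Of 18 genes of the lamellar body and surfactant processing, 15 were tested, and 3 of these also chose the cells. Among the other 12, 0 passed 2-fold, and their median log2 ratio was 0.07. Among the genes of the rule, given as a description, Lamp3, a lamellar body membrane protein, had a log2 ratio of 0.22, Slc34a2, a phosphate transporter, -0.18, and Abca3, the transporter that loads phospholipid into lamellar bodies, -0.39. Napsa stood at -0.33. The 15 transcription factors and receptors of type 2 cells had a median of -0.30. Nkx2-1, the master regulator of lung epithelium, was at 389 CPM in TNF- and 399 in TNF+ (log2 0.04, interval -0.05 to 0.13). Cebpa, a factor of type 2 maturation, was at 299 and 170 CPM (log2 -0.81), and only Fgfr3, a fibroblast growth factor receptor, passed 2-fold, at -1.04 (-0.90 in the cells with at least 16000 UMIs).

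Secreted defense and acute-phase proteins were higher in TNF+ cells. Of 20 such genes, 13 were tested, 7 were higher and 0 lower, with a median log2 ratio of 1.75. Lcn2 encodes lipocalin 2, which withholds iron from bacteria by binding their siderophores. Over cells Lcn2 ran from 0 through a median of 559 to 14022 CPM in TNF- and from 0 through 6064 to 26201 in TNF+. Of 147 TNF+ cells, 126 lay above the level at which the highest 10% of TNF- cells began, although the ranges overlapped. Its summed level was 978 CPM (955 to 1001) in TNF- and 7785 (7697 to 7873) in TNF+, a log2 ratio of 2.99 (2.96 to 3.03). A T cell held 0.0381 and 0.299 UMIs of Lcn2, against 23.2 and 207 in a type 2 cell.

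Slpi, a secreted inhibitor of leukocyte proteases, ran over cells from 0 through a median of 33.9 to 1809 CPM in TNF- and from 0 through 810 to 7576 in TNF+, with a summed log2 ratio of 4.07 (3.94 to 4.20). As with Lcn2, 126 TNF+ cells stood above the level at which the highest 10% of TNF- cells began. Chil1, a chitinase-like protein, was at 2061 CPM in TNF- and 7253 in TNF+ (log2 1.82), and every TNF+ cell held it, the lowest at 486 CPM. Cp, the copper-carrying ferroxidase ceruloplasmin, was at 5.92 and 156 CPM (log2 4.72), with UMIs in 19 TNF- and 93 TNF+ cells. Saa3, an acute-phase serum amyloid, was nearly absent from TNF- cells, with 7 UMIs in 7 cells, and held 322 UMIs in 35 TNF+ cells (log2 6.42, interval 5.36 to 7.74). Saa3 was thus high in a minority of TNF+ cells, unlike Lcn2 and Slpi. Pigr, the receptor that carries polymeric antibodies across epithelium, lies outside this list and was at 6.06 and 138 CPM (log2 4.51), with UMIs in 20 TNF- and 79 TNF+ cells.

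The lysozymes, which cleave bacterial cell walls, did not reach 2-fold over all selected cells. Lyz2 was at 22715 CPM in TNF- and 28985 in TNF+ (log2 0.35). Lyz1 was at 2908 and 1964 CPM (log2 -0.57) and was uneven among cells, with 82.6% of its TNF- UMIs and 94.3% of its TNF+ UMIs in the highest 10% of cells. Over the settings tried, the log2 ratio ran from -0.012 to 0.44 for Lyz2 and from -2.64 to -0.10 for Lyz1. Reads of these near-identical neighbors may be split between them. Free RNA was larger here, with 31.0 UMIs of Lyz2 per TNF+ T cell against 770 per type 2 cell.

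**Figure D3:**
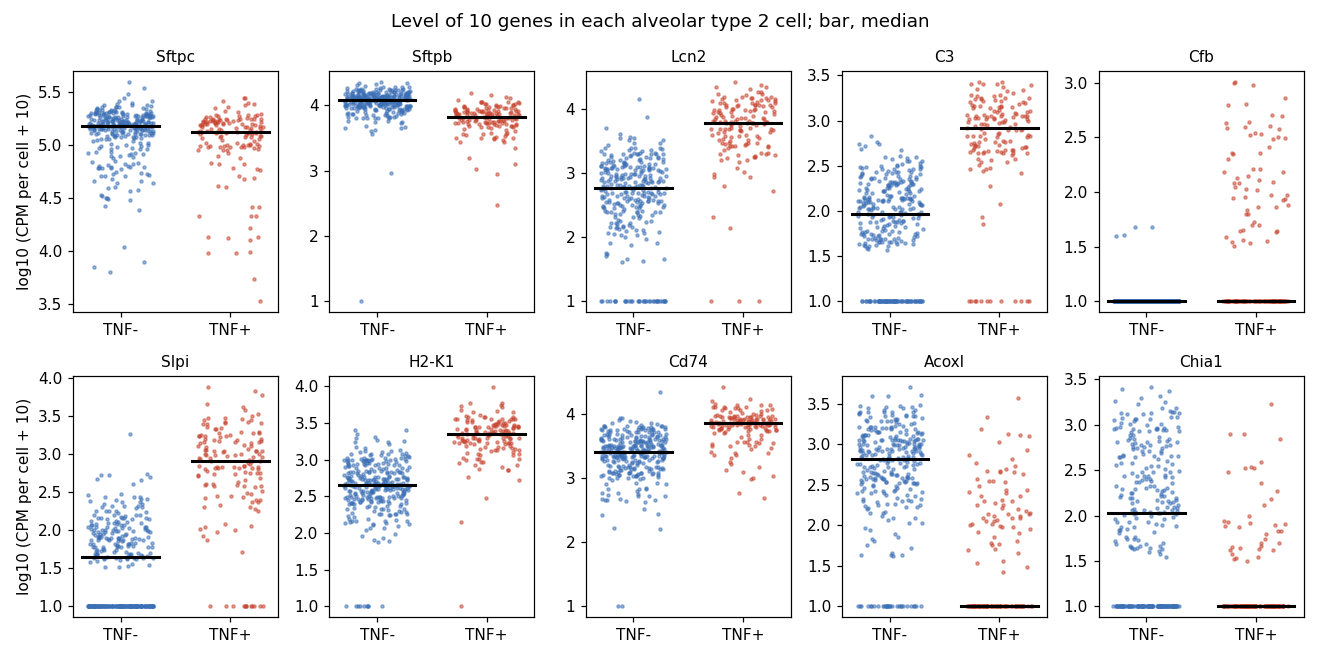
Level of 10 genes in each alveolar type 2 cell, as log10 of CPM per cell plus 10, with 1 point per cell and the median as a bar, for 306 TNF- and 147 TNF+ cells. Lcn2, C3, Slpi, H2-K1 and Cd74 shift upward in most TNF+ cells, Cfb appears in 63 of them, and Acoxl and Chia1 have a median of 0 in TNF+.

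Complement is a cascade of plasma and cell-surface proteins that tags and lyses microbes, and its components were among the genes with the largest ratios. Of 25 complement genes, 11 were tested, 6 were higher in TNF+ and 0 lower, with a median log2 ratio of 1.04. C3, the central component, lies on the minus strand of chr17:57203970-57228136 (GRCm38). Its level ran over cells from 0 through a median of 83.4 to 663 CPM in TNF- and from 0 through 824 to 2683 in TNF+. Above the highest TNF- cell stood 87 TNF+ cells, and 130 stood above the level at which the highest 10% of TNF- cells began. The summed level of C3 was 121 CPM (113 to 130) in TNF- and 1013 (982 to 1045) in TNF+, a log2 ratio of 3.06 (2.96 to 3.17).

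Cfb encodes factor B, the protease precursor of the alternative pathway convertase, and lies at chr17:34856374-34862518 on the minus strand. In TNF- it had 4 UMIs in 4 cells (1.31%), the highest at 38.0 CPM. In TNF+ it had 472 UMIs in 63 cells (42.9%), the highest at 1009 CPM, and the median cell held 0. The log2 ratio of Cfb was 7.78 (6.41 to 9.66). C3 was thus detected in 135 of the 147 TNF+ cells and Cfb in fewer, although the ratio of Cfb was larger.

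Shares of cells with a UMI depend on depth, so each cell was also thinned at random to 2000 UMIs, which left out 6 TNF- and 12 TNF+ shallower cells. The share with C3 was then 20.7% (16.2 to 25.7) in TNF- and 74.8% (66.6 to 81.9) in TNF+ type 2 cells, next to 0.394% and 7.29% of T cells. Cfb was detected in 0 of 300 TNF- cells (upper limit 1.22%) and in 19.3% (13.0 to 26.9) of TNF+ cells, next to 0.131% and 1.84% of T cells. In the TNF+ lung both shares were far above those in T cells.

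The proteases of the classical pathway were higher as well. C1s1 had 4 UMIs in TNF- and 127 in TNF+ (log2 5.88), and C1ra had 20 and 183 (log2 4.09). Clu, a chaperone that restrains the membrane attack complex, was at 155 and 577 CPM (log2 1.89, and 0.66 in cells of 5000 to 20000 UMIs). Among the terminal components, Hc, the gene of C5, was abundant and level, at 1418 CPM in TNF- and 1499 in TNF+ (log2 0.08, interval 0.03 to 0.13), and C6 was at 147 and 303 CPM (log2 1.04, and 0.91 to 0.99 in 5 other settings). The subunits of C1q, which macrophages make, were too low to be tested, with 6, 7 and 5 UMIs of C1qa, C1qb and C1qc in TNF- and 73, 71 and 53 in TNF+.

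**Figure D4:**
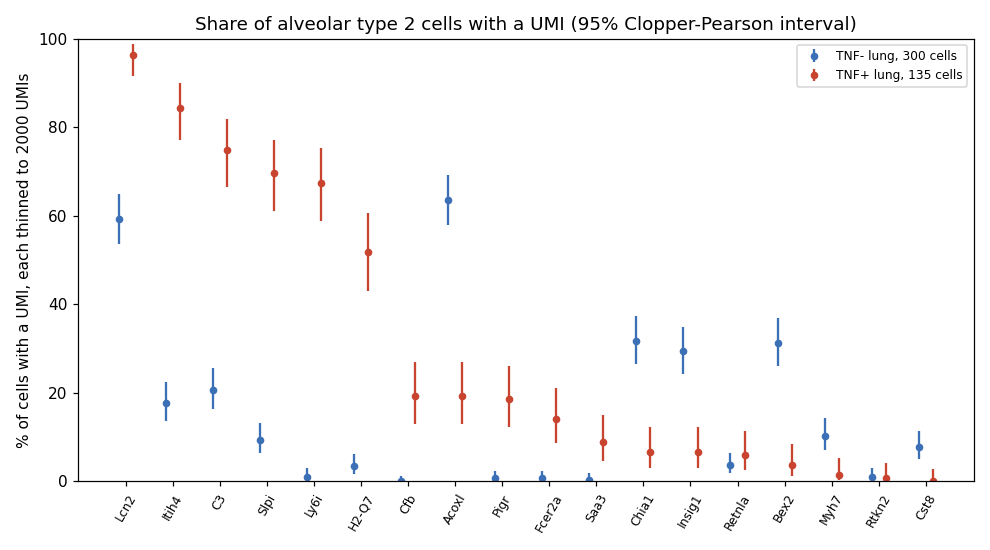
Share of alveolar type 2 cells with at least 1 UMI of each gene after thinning every cell to 2000 UMIs, for 300 TNF- and 135 TNF+ cells, with Clopper-Pearson intervals. For Lcn2 the share is 59.3% in TNF- and 96.3% in TNF+, for Slpi 9.33% and 69.6%, and for C3 20.7% and 74.8%, while Acoxl runs the other way, from 63.7% to 19.3%.

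Genes of MHC class I and of its peptide loading were higher almost without exception. Of 15 genes, 14 were tested, 13 were higher and 0 lower, with a median log2 ratio of 2.12. H2-K1, a classical class I heavy chain, ran over cells from 0 through a median of 437 to 2511 CPM in TNF- and from 0 through 2223 to 9742 in TNF+. Of the TNF+ cells, 129 stood above the level at which the highest 10% of TNF- cells began. The summed level of H2-K1 was 582 CPM in TNF- and 2421 in TNF+ (log2 2.06), and the log2 ratio of H2-D1 was 1.90 (1.84 to 1.96). B2m, the shared light chain, was at 244 CPM (233 to 256) in TNF- and 1458 (1420 to 1496) in TNF+ (log2 2.58, interval 2.50 to 2.66). A type 2 cell held on average 5.79 UMIs of B2m in TNF- and 38.7 in TNF+, while a T cell, which makes class I itself, held 18.0 and 22.6.

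The nonclassical class I genes had larger ratios. H2-Q7 was at 15.7 CPM in TNF- and 401 in TNF+ (log2 4.67), with 94 TNF+ cells above the highest TNF- cell, H2-Q6 had a log2 ratio of 3.88 and H2-Q4 of 2.70. Reads of these closely related genes may be split among them. Tapbp, the chaperone tapasin, was the only tested member under 2-fold, at 0.96, and it overlaps a neighboring gene.

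MHC class II, which presents peptides to CD4+ T cells, was present in type 2 cells of both libraries and higher in TNF+. Of 10 genes, 8 were tested, 7 were higher and 0 lower, with a median log2 ratio of 1.25. Cd74, the invariant chain, ran over cells from 0 through a median of 2611 to 22044 CPM in TNF- and from 484 through 7202 to 26790 in TNF+, and its summed level was 3093 and 7346 CPM (log2 1.25, interval 1.22 to 1.27). The ranges overlapped, with 107 TNF+ cells above the level at which the highest 10% of TNF- cells began. In cells of 5000 to 20000 UMIs the log2 ratio of Cd74 was 0.74. Summed over the list, class II stood at 116 and 323 UMIs per type 2 cell, next to 9.49 and 18.8 per T cell, of which Cd74 made 73.4 and 195 per type 2 cell and 4.19 and 8.34 per T cell. Macrophage and monocyte markers, from cells that also make class II, summed to 1.15 and 5.36 UMIs per type 2 cell, and their part in this result was not tested. H2-Aa had a log2 ratio of 1.24 (0.99 under the limits used in the study), H2-Eb1 of 1.53 and H2-Ab1 of 1.72. Ciita, the transactivator of class II genes, was at 29.5 and 70.7 CPM (log2 1.26). H2-DMb2, a subunit of the peptide exchange factor, stood out at 3.72 and 74.3 CPM (log2 4.32), next to its neighbor H2-DMb1 at 0.79.

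The receptors and adaptors of TNF itself were close to level. Of 12 genes, 10 were tested and 0 passed 2-fold, with a median log2 ratio of 0.07. Tnfrsf1a, the gene of TNFR1, was at 39.0 CPM (34.6 to 43.8) in TNF- and 39.9 (33.9 to 46.7) in TNF+. Genes of NF-κB and its targets were higher, with 11 of 18 tested past 2-fold and 0 lower, and a median of 1.15. Nfkbia, the inhibitor IκBα, was at 81.3 and 306 CPM (log2 1.91), and Nfkbie, the inhibitor IκBε, at 1.24 and 25.9 CPM (log2 4.38). Relb, a subunit of the noncanonical pathway, had a log2 ratio of 2.16, Sod2, the mitochondrial superoxide dismutase, of 2.08, and Nfkb1, which encodes p105, of 0.53. Tnfrsf9, a co-stimulatory receptor of the TNF receptor family, was at 3.99 and 134 CPM (log2 5.07), with UMIs in 22 (7.19%) of TNF- and 111 (75.5%) of TNF+ cells.

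Promoters were read to show the sequence in front of these genes. RefSeq windows from 250 bases before to 50 bases after a transcription start (GRCm38.p6) were available for 6943 of the 8672 tested genes. The κB motif (GGG, then 3 bases of any kind, then TTCC), searched on both strands, was found in 5.56% of all windows and in 502 (7.23%) of the tested genes. It was found in 31 of 186 genes (16.7%) that were higher in TNF+ and in 7 of 186 (3.76%) that were lower. In the NF-κB list it was found in 7 of 15 genes (46.7%), in the class I list in 2 of 13, in the acute-phase list in 1 of 10 and in the complement list in 0 of 9. The TNF receptor list, in which 0 genes passed 2-fold, held it in 2 of 8 genes (25%). The redox list, with 5 genes lower and 1 higher, held it in 3 of 13, the interferon-stimulated list in 3 of 10 and the class II list in 0 of 5. A match describes the letters in the window and is neither a bound site nor a cause. Printed 5′ to 3′ on the strand of the gene are stretches around the matches of 6 genes that were higher in TNF+ cells, at chr2:122147531-122147600 (B2m, plus strand), chr17:35379413-35379482 (H2-Q4, plus), chr12:55492648-55492706 (Nfkbia, minus), chr17:45555564-45555633 (Nfkbie, plus), chr4:150927926-150927995 (Tnfrsf9, plus) and chr5:90891126-90891214 (Cxcl1, plus). They lie upstream of an annotated RefSeq start, which for Tnfrsf9 is inside the longer annotated gene. Capitals mark the matches on either strand, and Cxcl1 holds 3, of which 2 overlap.
B2m: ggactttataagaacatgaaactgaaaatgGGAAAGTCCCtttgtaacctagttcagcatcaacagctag
H2-Q4: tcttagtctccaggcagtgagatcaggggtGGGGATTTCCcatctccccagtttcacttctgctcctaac
Nfkbia: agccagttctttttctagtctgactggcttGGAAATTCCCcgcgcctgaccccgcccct
Nfkbie: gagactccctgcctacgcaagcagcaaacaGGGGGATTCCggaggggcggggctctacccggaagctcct
Tnfrsf9: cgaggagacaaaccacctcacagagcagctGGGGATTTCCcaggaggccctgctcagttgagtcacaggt
Cxcl1: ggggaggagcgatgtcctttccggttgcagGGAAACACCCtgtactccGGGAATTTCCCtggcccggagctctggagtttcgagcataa

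Of 22 chemokines and cytokines of the epithelium, 9 were tested, 3 were higher and 0 lower. Cxcl1, which attracts neutrophils, had 17 UMIs in TNF- and 131 in TNF+ (log2 3.84), in 12 and 36 cells. Cx3cl1, or fractalkine, had a log2 ratio of 1.76 (0.78 under the limits used in the study). Csf2, or GM-CSF, was at 13.2 and 40.7 CPM (log2 1.62), and turned to -0.36 in the cells with 5000 to 20000 UMIs. Il33, an alarmin that type 2 cells store in the nucleus, was at 382 and 679 CPM (log2 0.83). Interferon-stimulated genes were mostly too low to test, with 15 of the 34 genes in the matrix tested. Of these 8 were higher and 0 lower, with a median of 1.02, among them Ifitm3, an antiviral membrane protein (log2 2.44), and Bst2, or tetherin (log2 2.26).

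Several genes with large ratios belonged to none of these lists. Ly6i, a GPI-anchored surface protein, was at 13.5 CPM in TNF- and 772 in TNF+ (log2 5.84, interval 5.55 to 6.14). It was detected in 32 (10.5%) of TNF- and 128 (87.1%) of TNF+ cells, next to 0.00262 and 0.182 UMIs per T cell. Fcer2a, the low-affinity IgE receptor CD23, was at 2.48 and 113 CPM (log2 5.52), and at 0.00919 and 0.0123 UMIs per T cell. Slc6a20a, a proline transporter, was at 21.2 and 453 CPM (log2 4.42), with 85 TNF+ cells above the highest TNF- cell. Il4i1, a secreted amino acid oxidase, had a log2 ratio of 5.15 and overlaps Nup62, so its reads are uncertain. Unc5b, a netrin receptor, stood at 5.41, the long noncoding RNA Gm20186 at 6.16 and Wnt4, a secreted Wnt ligand, at 4.19. These ratios rested on genes with few UMIs in TNF- cells, from 6 for Unc5b to 154 for Slc6a20a.

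Among lipid genes, those of cholesterol were lower in TNF+ cells. In cholesterol synthesis and uptake, 19 of 20 genes were tested, 15 were lower and 0 higher, with a median log2 ratio of -1.35, and all 19 ratios were negative, from -1.79 to -0.60. Hmgcs1, the enzyme that makes HMG-CoA, ran from 0 through 117 to 1213 CPM in TNF- and from 0 through 34.6 to 337 in TNF+ (log2 -1.51). The ranges overlapped, but 0 TNF+ cells stood above the level at which the highest 10% of TNF- cells began. Insig1, which retains the sterol sensor in the endoplasmic reticulum, was at 156 and 48.4 CPM (log2 -1.69) and Fdps, which makes farnesyl diphosphate, at 182 and 65.3 CPM (log2 -1.48). Dhcr7, the last enzyme of the pathway, had the lowest ratio at -1.79, but stood at -0.17 once cells were thinned to 2000 UMIs. Srebf2, the transcription factor of the pathway, was lower by less, at 149 and 92.2 CPM (log2 -0.70). At a limit of 4-fold none of these genes would count. In cells of 5000 to 20000 UMIs only 9 were tested, of which 4 were lower.

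The sterol regulatory motif TCACNCCAC, searched in the same way, was found in 1.24% of all windows and in 1.43% of the tested genes. Of the 12 cholesterol genes with a window only Hmgcs1 held it, at chr13:119690184-119690252 on the plus strand, and it was found in 5 of 186 (2.69%) of the higher genes and in as many of the lower ones. The stretch is shown because Hmgcs1 was the only one of these cholesterol genes with a match, which is in capitals.
Hmgcs1: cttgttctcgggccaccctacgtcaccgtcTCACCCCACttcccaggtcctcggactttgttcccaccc

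Fatty acid and phospholipid synthesis did not follow as a group. Of 24 genes, 21 were tested, 3 were lower and 1 higher, with a median of -0.40. Fasn, the fatty acid synthase, had a log2 ratio of -0.14 and Scd1, the stearoyl-CoA desaturase, of 0.51. Fabp5, a fatty acid carrier, was at 772 CPM in TNF- and 2237 in TNF+ (log2 1.53), and the desaturases Fads1 and Fads2 stood at -1.21 and -1.30, the latter at -0.53 under the limits used in the study. Acoxl, an acyl-CoA oxidase-like gene, had the lowest ratio, running over cells from 0 through a median of 642 to 5113 CPM in TNF- and from 0 through 0 to 3691 in TNF+. Its UMIs were found in 276 (90.2%) of TNF- cells and 71 (48.3%) of TNF+ cells, and its summed log2 ratio was -2.45 (-2.57 to -2.33).

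Other genes with large ratios in this direction were more varied in function. Among 22 further markers of type 2 cells, all tested, 5 were lower and 2 higher, next to 2.86% and 2.87% of all tested genes. Their log2 ratios ran from -3.38 to 1.82, with a median of -0.18. Chia1, an acidic chitinase, ran over cells from 0 through a median of 97.5 to 2600 CPM in TNF- and from 0 through 0 to 1686 in TNF+, with UMIs in 198 (64.7%) and 38 (25.9%) of the cells (log2 -2.97, interval -3.20 to -2.75). Bex2, a small signaling adaptor, was at 200 and 19.2 CPM (log2 -3.38), in 66.0% and 17.0% of cells, and its relative Bex4 stood at -1.56. Myh7, best known as the slow myosin heavy chain of muscle, was at 70.9 and 7.94 CPM (log2 -3.16), and was at 0 in the T cells of both libraries. Cst8, a cystatin, held 373 UMIs in 125 TNF- cells and 10 UMIs in 6 TNF+ cells (log2 -4.33, interval -5.40 to -3.43). Pon1, a paraoxonase, was at 23.1 and 2.30 CPM (log2 -3.33), and Ptgs2, the inducible prostaglandin synthase COX-2, at 48.6 and 6.40 CPM (log2 -2.93). Tgfbi, a matrix protein, stood at -2.96, but at -0.16 without the conditions on Ptprc and Cdh5.

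The lowest 2 ratios of all belonged to genes held by few cells. Tafa1, a secreted neurokine-like protein, had 131 UMIs in 20 TNF- cells and 1 UMI in TNF+ (log2 -6.14, interval -11.45 to -3.64), and the long noncoding RNA Meg3 had 118 UMIs in 15 TNF- cells and 2 UMIs in 1 TNF+ cell (log2 -4.99, interval -8.05 to -3.10). The highest 10% of TNF- cells held all their UMIs. Restricted to the limits used in the study, the log2 ratio was -1.49 for Tafa1 and -1.83 for Meg3, and with cells thinned to 2000 UMIs it was -0.96 and -0.26. In cells without UMIs of Rtkn2, Spock2, Cav1, collagen genes or Pecam1 it was -5.88 and -3.76.

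In redox and detoxification 18 of 23 genes were tested, 5 were lower and 1, Sod2, was higher, around a median of -0.03. Cat, which encodes catalase, was at 467 CPM in TNF- and 216 in TNF+ (log2 -1.12), Gstm1, a glutathione transferase, had a log2 ratio of -1.64 and Cyp2b10, a cytochrome P450, of -2.27.

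Markers of type 1 cells, the fate of differentiating type 2 cells, were lower on the sum. Of 19 genes, 18 were tested, 10 were lower and 1 higher, with a median log2 ratio of -1.12. Ager, the receptor for advanced glycation end products, was found in nearly all cells of both libraries and was at 956 and 791 CPM (log2 -0.27). Hopx, a homeodomain cofactor, was at 133 CPM in TNF- and 14.1 in TNF+ (log2 -3.24), but 90.7% of its TNF- UMIs came from 31 cells, and 1 cell held 374 of 969. Without cells that held a UMI of Rtkn2, Spock2, Cav1, a collagen gene or Pecam1, which left 167 TNF- and 113 TNF+ cells, 2 of 12 tested type 1 markers were lower, their median was -0.28 and the ratio of Hopx was -0.83. Since Rtkn2, Spock2 and Cav1 are themselves on the list, that set lowers the count by its own construction. Without the highest doublet scores 6 of 15 were lower. Sec14l3, a lipid-binding protein, was spread over more cells, with UMIs in 224 (73.2%) of TNF- and 35 (23.8%) of TNF+ cells (log2 -2.58), and stood at -2.51 in that smaller set. T cells held Hopx themselves, at 1.36 and 1.42 UMIs per cell.

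The transitional state, through which type 2 cells pass after injury on the way to type 1, was not higher as a group. Of 23 genes of that state 17 were tested, 6 were lower and 1, Clu, was higher, with a median of -0.42. Krt8, the keratin that names the state, had a log2 ratio of -0.58. Areg, an epidermal growth factor receptor ligand, stood at -1.93 and Ccnd1, the cyclin of G1, at -1.04 (-0.96 without the conditions on Ptprc and Cdh5). The low ratios of Ccn1 (-2.80) and Ccn2 (-1.94), matricellular proteins, turned positive in some of the other sets of cells, as did that of Lgals3 (-1.19) without the condition on Ptprc and Cdh5.

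**Figure D5:**
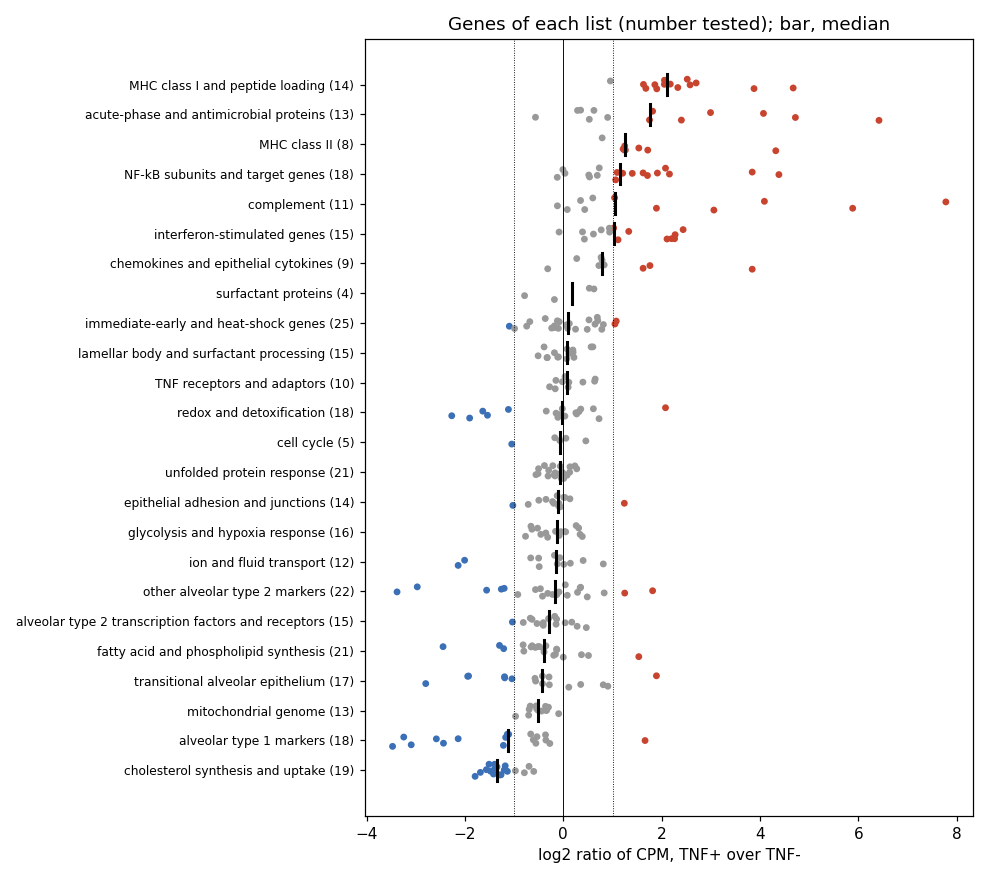
Log2 ratio of CPM, TNF+ over TNF-, for every tested gene of the 24 functional lists, 1 point per gene, with the median of each list as a bar and dotted lines at 2-fold. MHC class I (median 2.12), acute-phase (1.75) and MHC class II (1.25) lie highest and cholesterol synthesis (-1.35) and type 1 markers (-1.12) lowest, while the lamellar body and TNF receptor lists have medians of 0.07.

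Several general programs had from 0 to 2 genes past 2-fold in either direction. Over all tested genes 2.87% were higher and 2.86% lower, and in lists this short a single gene makes a larger share. The unfolded protein response (21 tested) and glycolysis (16 tested) had 0 genes in either direction, with medians of -0.07 and -0.12. The 13 genes of the mitochondrial genome, whose share was limited to 20% in choosing the cells, had a median of -0.52, and 0 passed 2-fold. Their median was 0.19 under the limits used in the study and 0.026 in cells of 5000 to 20000 UMIs. Immediate-early and heat-shock genes, which dissociation can induce, had 2 of 25 higher and 1 lower around a median of 0.09. Under the limits used in the study 3 of 13 were higher and 1 lower, with a median of 0.67. Junction genes (14 tested) had 1 in each direction. Of 12 tested ion and fluid transporters 1 also chose the cells. Among the other 11, 2 were lower, including Ano1, a chloride channel, at -2.01. Cftr, the anion channel mutated in cystic fibrosis, was at 141 and 247 CPM (log2 0.81). Of 20 cell cycle genes only 5 held enough UMIs to be tested, and 1 of these was lower.

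The cells also varied in depth within each library. Split at 16000 UMIs, a limit chosen after the distribution was seen, 69 (22.5%) of the TNF- cells and 45 (30.6%) of the TNF+ cells were shallow. Shallow cells had a median mitochondrial share of 13.7% in TNF- and 7.96% in TNF+, against 4.71% and 3.31% in the deep cells. The nuclear RNA Malat1 made up 60672 and 52193 CPM of the shallow cells and 18555 and 20102 CPM of the deep ones. Sftpc was a median of 6.42% and 9.74% of the UMIs in shallow cells and 16.0% and 14.7% in deep cells. The comparison of genotypes was made within each class. In shallow cells Lcn2 was at 312 CPM in TNF- and 3339 in TNF+, and in deep cells at 1040 and 8174. C3 was at 91.8 and 775 CPM in shallow cells and at 124 and 1034 in deep ones. Acoxl was at 1042 and 505 CPM in shallow cells and at 845 and 128 in deep ones. The direction was the same in both classes for these 3 genes, and the counts of genes past 2-fold among the deep cells alone were 230 higher and 246 lower of 8366 tested.

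Levels of lists were also compared among cells with at least 10000 UMIs (264 TNF- and 118 TNF+). For this the acute-phase list was summed without surfactant protein and lysozyme genes. That sum went with the MHC class I level at a Spearman coefficient of 0.25 in TNF- and 0.61 in TNF+. MHC class I went with class II at 0.32 and 0.56, and class II with the cholesterol list at -0.28 in both. The same reduced acute-phase sum also went with UMIs per cell, at 0.44 and 0.57. These are descriptions over cells that share a library and a denominator, and the part of depth in them was not tested.

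A few genes were noted after their values were seen. Itih4, an acute-phase inhibitor heavy chain, was at 117 CPM in TNF- and 1683 in TNF+ (log2 3.85), and after thinning was found in 17.7% and 84.4% of cells. Hp, the hemoglobin scavenger haptoglobin, was at 616 and 3250 CPM (log2 2.40). Retnla, a secreted resistin-like protein of type 2 immunity, had 167 UMIs in TNF- and 1253 in TNF+ (log2 3.80), yet after thinning to 2000 UMIs the share of cells that held it was 3.67% (1.84 to 6.47) for TNF- and 5.93% (2.59 to 11.3) for TNF+. The difference in Retnla thus lay in the level of few cells, while Itih4 was detected in most TNF+ cells. The highest ratio of all tested genes belonged to Cxcl13, a chemokine that attracts B cells, with 1 UMI in TNF- and 150 in TNF+ (log2 8.12, interval 5.62 to 13.44). A TNF+ type 2 cell held 1.02 UMIs of Cxcl13 on average and a TNF+ T cell 2.23, so its level was not above that in T cells.

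Markers of the airway moved the other way from immune RNA. Scgb1a1, the secretoglobin of club cells, was at 321 CPM in TNF- and 99.6 in TNF+ type 2 cells (log2 -1.69), or 7.61 and 2.65 UMIs per cell, next to 3.54 and 2.32 per T cell. The 8 endothelial markers summed to 1.12 and 0.612 UMIs per type 2 cell and the 8 fibroblast and mural markers to 0.451 and 0.116. The 5 erythroid markers were at 140 and 30.7 CPM and the 4 platelet markers at 13.8 and 38.7 CPM. Whether these levels are free RNA or attached cells was not tested.

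Barcodes with type 1 markers (Ager and Rtkn2 at least 3 UMIs, with under 50 of Sftpc, and 0 of Ptprc and Cdh5) were used for comparison, 157 in TNF- and 25 in TNF+. They were shallow, with medians of 1243 and 1261 UMIs, and held 181692 and 13881 UMIs of Scgb1a1, so they are no pure type. In them the log2 ratio of C3 was 3.47 (2.75 to 4.19), of H2-K1 1.45 (1.13 to 1.76) and of Cd74 2.87 (2.52 to 3.21), from 34, 107 and 113 UMIs in TNF+. These values are a description. The part of free RNA in them was not tested, and neither was the difference between the cell types.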

How the data were processed

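Both lung libraries (droplet-based 3′ RNA-sequencing, 10x Genomics) were used. The authors deposited raw UMI counts per gene and barcode for called cells, made with Cell Ranger 7.0.1 on the mm10 build per the submitters' processing notes, a version that counts intronic reads by default. Each matrix listed 32285 genes, of which 32158 were found in GENCODE vM21. Library totals were 96120328 UMIs (TNF-) and 155989523 UMIs (TNF+). No deposited annotation of cells was used. The members and gene lists were chosen with earlier results of these data known. UMIs were summed over the cells of each library and divided by their total (CPM, exact Poisson interval). Log2 ratios carry a conditional binomial interval and shares a Clopper-Pearson interval, all at 95%. A library at 0 was set to a floor of 3 UMIs. Genes with at least 100 UMIs over both libraries were tested, in the sense of being set against the 2-fold limit, since 1 library per group allows no statistical test. Named genes were the markers of the rule, the 15 highest and 15 lowest ratios whose mean UMIs per cell were at least 3 times those of T cells, the 10 most abundant genes, up to 6 of the most abundant and 4 of the largest ratios from each list, C3 and Cfb. Other genes are named as chosen after their values were seen, or as parts of a list. Doublets were not removed. As an alternative, the highest Scrublet scores were removed (557 TNF- and 983 TNF+ barcodes, 12 and 14 of the selected cells), while automatic calls marked 166 in each. Promoters came from RefSeq (GRCm38.p6). Scripts ran in Python 3.11.15 with NumPy 2.4.6, SciPy 1.17.1, pandas 2.3.3, Scanpy 1.11.5 and matplotlib 3.10.9 and were tested on simulated data. Alternatives covered limits on cells, depth, denominators, doublets, filters on low counts and the fold that counts. A named result is not reported here.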

Additional observations from a re-analysis of the deposited data

How the results depend on the processing

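At a limit of 1.5-fold 548 genes were higher and 725 lower, and at 4-fold 77 and 48, with 0 cholesterol genes and 6 type 1 markers lower and 1 MHC class II, 5 interferon-stimulated and 4 NF-κB genes higher. With at least 20 UMIs per gene 589 were higher and 713 lower (18 interferon-stimulated genes higher, and 11 of 19 complement genes higher and 3 lower), and with at least 500 UMIs 90 and 75 (5 type 1 markers lower, and 8 class I, 2 interferon-stimulated, 3 NF-κB and 3 complement genes higher). In cells of 5000 to 20000 UMIs (84 TNF-, 30 TNF+) 105 were higher and 91 lower of 2442, with 4 cholesterol genes and 3 type 1 markers lower and 3 class II, 5 class I, 0 interferon-stimulated, 2 NF-κB and 2 complement genes higher, and the ratios of Ccn1, Ccn2, Csf2 and Klf2 turned to 0.81, 0.33, -0.36 and -0.094. Thinned to 2000 UMIs, 53 were higher and 32 lower of 1232, with 4 cholesterol genes and 2 type 1 markers lower and 4 class I, 0 interferon-stimulated, 3 NF-κB and 3 complement genes higher. Under the study's limits on cells the selected cells were 2.03% and 0.578% of the barcodes, 152 genes were lower of 4051, with 7 cholesterol genes and 3 type 1 markers lower and 4 class II, 7 class I, 2 interferon-stimulated, 4 NF-κB and 3 complement genes higher, and Spock2, Ccn1 and Ccn2 turned to 0.17, 0.059 and 0.30. Without the conditions on Ptprc and Cdh5 (5.57% and 2.58%) 584 genes were higher and 557 lower of 10803, 11 complement genes were higher and 1 was lower, and Lgals3 turned to 0.14. In cells without Rtkn2, Spock2, Cav1, collagen or Pecam1 UMIs, a set added after seeing the data, 157 genes and 2 type 1 markers were lower and Sema3e, Ccn1 and Ccn2 turned to 0.060, 1.26 and 1.19. Without the highest Scrublet scores 6 type 1 markers were lower and Ccn2 turned to 0.49. In these settings fewer genes could be tested where cells or UMIs were fewer, and no other cause was tested. The genes tested are given in the order cholesterol, type 1, class II, class I, interferon-stimulated, NF-κB and complement. They numbered 9, 9, 5, 5, 1, 7 and 4 in cells of 5000 to 20000 UMIs. After thinning they numbered 5, 5, 5, 5, 1, 5 and 4, and under the study's limits 14, 11, 7, 8, 4, 8 and 6. The count of higher acute-phase genes stayed within 1.5 times 7 in every alternative. Under the study's limits on cells, and in cells of 5000 to 20000 UMIs, 1 acute-phase gene was lower. Minimum depth, a stricter mitochondrial limit, another Sftpc minimum, equal weights, other denominators, shared barcodes and a limit of 16000 UMIs, the last added after seeing the data, moved neither the total counts nor those of the cholesterol, type 1, class I, class II, interferon-stimulated, NF-κB, acute-phase and complement lists beyond 1.5 times. Under some of them, counts of 0 to 2 genes changed by 1 gene, as in the immediate-early and ion transport lists. No paired analysis was possible because each genotype has only 1 lung library.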
